A study of Homo sapiens with 32 samples.

Results

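FOXM1 and the MYB family members MYB, MYBL1 and MYBL2 were followed in ZR-75-1 xenografts during treatment with tamoxifen. Their probes were taken from the list in which the study names its changed probes, by gene symbol. The list holds 5 such probes of 4 genes among 333 named probes, and the arrays hold 9912 probes. FOXM1, MYBL2 and MYB have 1 probe each. MYBL1 has 2 probes, which the study placed in different sets of its clustering, and they are called the set 2 probe and the set 5 probe here. All 5 probes were kept in every fit. Because the study chose the list as changed on the same arrays, a difference of a listed probe from the control pool is no independent evidence of its direction.

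ZR-75-1 cells come from a human breast carcinoma and express the estrogen receptor. Tumors were grown in female nu/nu mice, every one of which carried a pellet releasing 0.72 mg of E2 over 60 days. In the treated mice a pellet with 2.5 mg of tamoxifen, again for 60 days, was added, and 16 of their tumors from 12 mice were analysed. These were 4 tumors from 2 mice at day 1, 2 tumors from 2 mice at day 2, 4 tumors from 3 mice at day 4, 4 tumors from 3 mice at day 7 and 2 tumors from 2 mice at day 14. Each tumor was hybridized against 1 pool of RNA from xenografts with E2 alone, collected up to day 4. Differences of days 7 and 14 from that pool therefore contain time as well as tamoxifen, and these cannot be told apart. Nude mice keep their own stroma, vessels and innate immune cells, so the RNA is a mixture. Fewer cells with a transcript and less of it per cell cannot be told apart in such RNA.

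Values are log2 ratios of tumor over control pool. A value of 0 means the level of the pool, and negative values mean less RNA than in the pool. Each is the mean of a forward array and an array with the dyes exchanged, except in day 4 replicate 3, whose dye-swap array was left out because its ratios followed those of another tumor (r = 0.88 across probes). The direction is that of the authors' value table. If the channel numbers of the labels were used for the files instead, every sign would turn. With the direction used, the median of 22 estrogen-induced genes was below 0 on all 5 days. That list was chosen with earlier results of these data known, so its median is no independent check of the direction. The dye-swap array of day 2 replicate 1 correlated with the other dye-swap arrays at no more than 0.16 across probes, and the forward array of day 7 replicate 4 matched its own column of the authors' table at only 0.22. The number of tumors per day limits the precision, and signal over background differed between the probes. The median signal of the tumor channel was 20.9 times the local background for FOXM1, 28.1 for MYBL2 and 16.0 for MYB, but only 3.91 and 3.82 for the set 2 and set 5 probes of MYBL1.

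FOXM1 is a forkhead transcription factor that accumulates in G2 and switches on genes of mitosis. MYBL2, also called B-MYB, is made from late G1 under the control of E2F factors, joins the MuvB complex and prepares the same mitotic genes for FOXM1. MYB is the cellular homologue of a viral oncogene, and in breast cancer cells the estrogen receptor releases a block to its elongation. MYBL1, or A-MYB, is best known from meiosis in male germ cells. Tamoxifen competes with E2 for the estrogen receptor and slows the cell cycle of such tumors in G1.

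Promoter sequences are shown because E2F control of MYBL2 is part of this background and a matching stretch can be seen in both. The RefSeq-derived promoter table of GRCh38.p14 held 2 of the 4 genes, MYBL2 (chr20:43666864-43667163, plus strand) and MYB (chr6:135181058-135181357, plus strand). Each window runs from 250 bases before the annotated start to 50 bases after it, and capitals mark the letters GGCGGGA, the core of many E2F sites. FOXM1 and MYBL1 had no entry.
MYBL2: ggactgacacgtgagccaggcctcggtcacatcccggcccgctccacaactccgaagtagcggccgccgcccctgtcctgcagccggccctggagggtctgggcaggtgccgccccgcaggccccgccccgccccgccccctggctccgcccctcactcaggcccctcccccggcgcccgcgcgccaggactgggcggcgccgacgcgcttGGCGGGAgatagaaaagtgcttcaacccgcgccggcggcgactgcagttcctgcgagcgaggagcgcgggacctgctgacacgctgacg
MYB: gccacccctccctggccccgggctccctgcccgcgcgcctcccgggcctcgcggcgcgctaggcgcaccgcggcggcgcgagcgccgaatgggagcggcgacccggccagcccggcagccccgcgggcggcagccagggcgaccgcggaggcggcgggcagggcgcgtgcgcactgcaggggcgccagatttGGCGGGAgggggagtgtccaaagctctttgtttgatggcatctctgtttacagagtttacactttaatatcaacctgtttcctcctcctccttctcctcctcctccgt
The letters GGCGGGA began 39 bases before the start of MYBL2 and 58 bases before that of MYB. On either strand they occurred in 15.4% of 35116 promoter windows of this length. The forkhead core TGTTTAC occurred once in MYB, 14 bases before the start, not in MYBL2, and in 3.42% of all windows. In neither window were TTTGAA (a core of the CHR element of mitotic genes, 15.2% of windows), AACGG (a core of MYB sites, 19.7%) or the palindrome GGTCA and TGACC with 3 bases between them (an estrogen response element, 0.057%) found. No motif overlapped another. These are matches of letters only.

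The day means of FOXM1 were farthest below the pool on days 2 and 14 and nearest to it on day 4. Its differences between days, given below, did not pass limma's tests (adjusted p = 0.284 to 0.531). At day 1 its log2 ratio was -0.49, -0.47, -0.02 and -0.53 in replicates 1 to 4, and at day 2 it was -0.59 and -0.78. In replicates 1, 2, 3 and 5 of day 4 it was -0.05, 0.20, -0.26 and -0.25, and in replicates 1 to 4 of day 7 it was -0.28, -0.29, -0.30 and -0.05. At day 14 it was -0.40 and -0.80. It was below the pool in 15 of 16 tumors. Both day 14 tumors lay below every tumor of days 4 and 7, which held for 4.82% of all probes (share of the named probes not computed). The day 1 mean was -0.38 ± 0.24 (SD, n = 4), 1.3-fold lower than the pool. The day 2 mean was -0.68 ± 0.13 (SD, n = 2), 1.60-fold lower. The day 14 mean was -0.60 ± 0.29 (SD, n = 2), 1.52-fold lower. These 3 days passed limma's test against the pool (adjusted p = 0.0375, 0.0320 and 0.0181). Days 4 and 7, with means of -0.09 and -0.23, did not (adjusted p = 0.699 and 0.4004).

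The calls of FOXM1 lie near the threshold. Leaving out 1 tumor ended the call at day 1 in 5 of 16 cases with values of -0.38 to -0.33 (day 1 replicates 1, 2 and 4, day 4 replicate 1 and day 7 replicate 1, adjusted p = 0.0511 to 0.177), at day 2 in 4 with values of -0.78 to -0.59 (both day 2 tumors, day 1 replicate 2 and day 4 replicate 1, adjusted p = 0.0501 to 0.374) and at day 14 with either day 14 tumor left out (-0.80 and -0.40, adjusted p = 0.0558 and 0.477), and with 1 mean per mouse day 1 did not pass (adjusted p = 0.263).

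**Figure D1:**
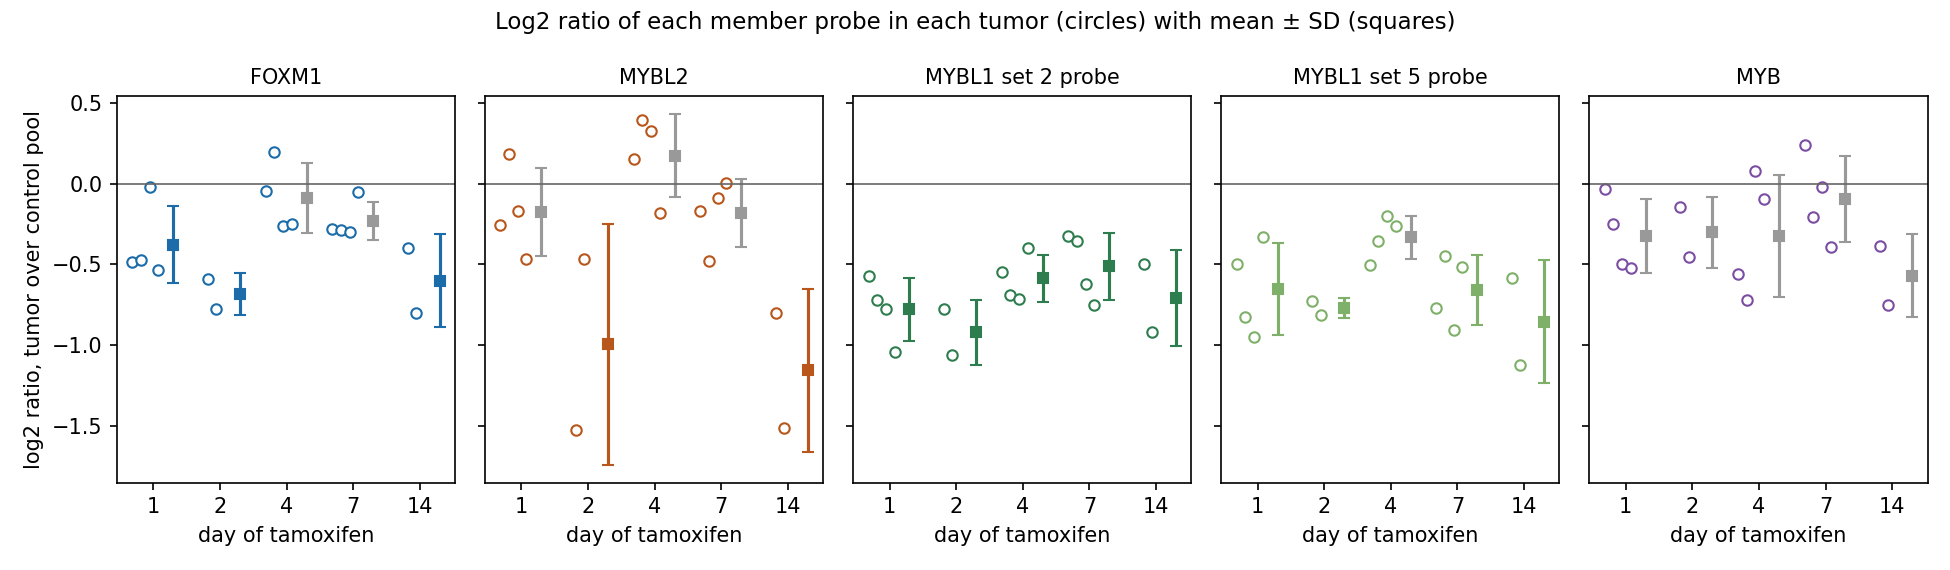
Log2 ratio of tumor over control pool (vertical axis) by day of tamoxifen (horizontal axis, days drawn at equal steps) for the 5 probes. Circles are tumors, squares with bars are means ± SD, and colored squares mark days that passed the test against the pool (adjusted p under 0.05, limma), grey squares days that did not. The MYBL1 set 2 probe lies below 0 in all 16 tumors, as do the values of the set 5 probe, of which the forward-only value of day 4 replicate 3 turns to 0.19 with the dye effect removed, while MYBL2 spans -1.52 to 0.40.

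MYBL2 had the widest range of the 5 probes, from -1.52 to 0.40. At day 1 its log2 ratio was -0.26, 0.19, -0.17 and -0.47 in replicates 1 to 4, and at day 2 it was -1.52 and -0.47. In replicates 1, 2, 3 and 5 of day 4 it was 0.15, 0.40, 0.32 and -0.18, and in replicates 1 to 4 of day 7 it was -0.17, -0.48, -0.09 and 0.00. At day 14 it was -0.80 and -1.51. Both day 14 tumors lay below every tumor of days 4 and 7, which held for 4.82% of all probes (share of the named probes not computed), but not below day 2 replicate 1. The day 14 mean was -1.16 ± 0.51 (SD, n = 2), 2.23-fold lower than the pool (adjusted p = 0.00372). At day 2 the mean was -0.995 ± 0.747 (SD, n = 2, adjusted p = 0.0364). Days 1, 4 and 7, with means of -0.18 ± 0.27, 0.17 ± 0.26 and -0.18 ± 0.21 (SD over 4 tumors each), did not pass (adjusted p = 0.570, 0.619 and 0.721).

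The day 2 call of MYBL2 comes from 1 array. On the dye-swap array of day 2 replicate 1 its log2 ratio was -2.58, with a tumor signal of only 1.82 times the background and a spot mark of 2, against -0.46 on the forward array of the same tumor. Without that array the day 2 mean was -0.47 (adjusted p = 0.171), and without the whole tumor it was -0.47 (adjusted p = 0.911). Leaving out day 1 replicate 1 or 3, day 4 replicate 1 or day 7 replicate 1 or 3 also took it past the threshold (adjusted p = 0.0506 to 0.0600). The day 14 call held in all 18 other settings and in 15 of 16 that left out 1 tumor. Without day 14 replicate 2 the day 14 value was -0.80 and did not pass (adjusted p = 0.276).

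MYBL2 differed strongly between array orientations. In 15 of 15 tumors with both arrays its ratio was higher on the forward array, by 0.90 ± 0.39 (SD, n = 15). All 15 dye-swap ratios were below 0, but only 6 of 16 forward ratios were. Averaging cancels such a difference where both arrays exist. Day 4 replicate 3 has a forward array alone, and with the dye effect of each probe removed first the day 4 mean of MYBL2 was 0.06 in place of 0.17. On forward arrays alone the day 4 mean of MYBL2 was 0.53 and passed as higher than the pool (adjusted p = 0.0433), while on dye-swap arrays alone it was -0.36, so its direction on that day depends on the orientation. For FOXM1 the orientations differed by 0.00 ± 0.22 (SD, n = 15). For MYB the forward ratio was lower in 14 of 15 tumors, with a mean difference of -0.36 ± 0.21 (SD, n = 15).

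**Figure D2:**
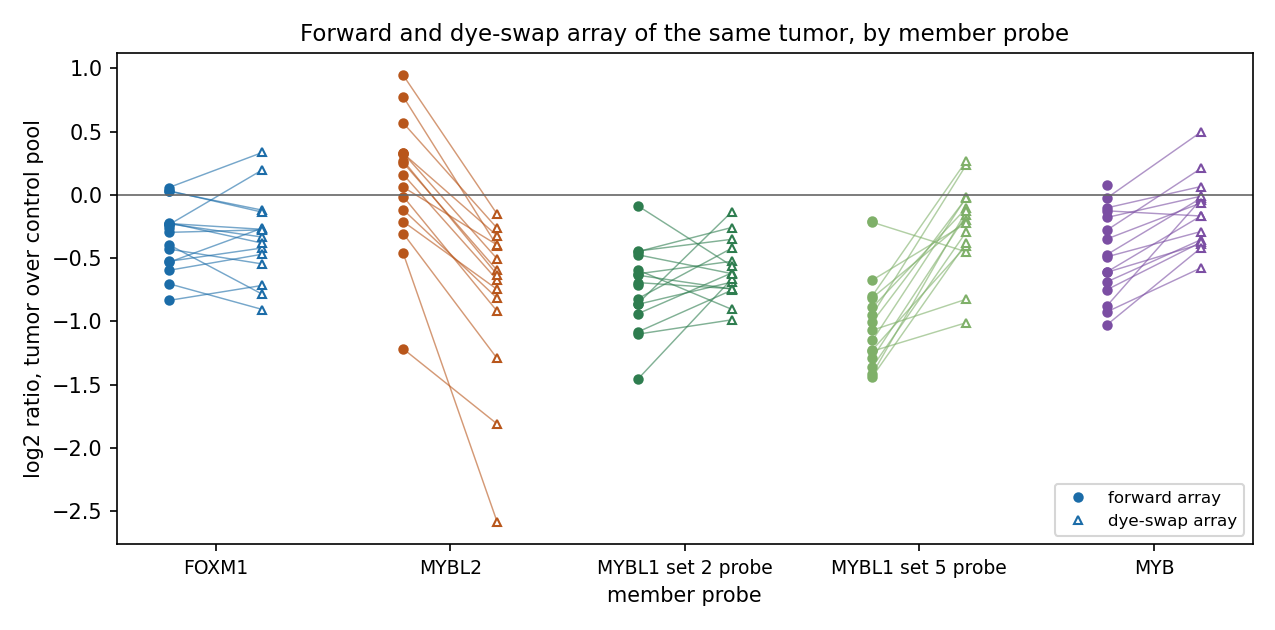
Log2 ratio of tumor over control pool on the forward array (filled circles) and on the dye-swap array (open triangles), by member probe, with a line joining the arrays of 1 tumor. Lines of MYBL2 all run down by a mean of 0.90, lines of the MYBL1 set 5 probe and of MYB run up in 14 of 15 tumors, and those of FOXM1 show no common slope.

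MYBL1 was lower than the pool in every tumor by its set 2 probe. On this probe its log2 ratio was -0.57, -0.72, -0.78 and -1.04 in replicates 1 to 4 of day 1, and -0.78 and -1.06 at day 2. In replicates 1, 2, 3 and 5 of day 4 it was -0.55, -0.69, -0.71 and -0.40, in replicates 1 to 4 of day 7 it was -0.32, -0.35, -0.62 and -0.75, and at day 14 it was -0.50 and -0.92. No tumor reached the pool, and the tumors of different days overlapped. This probe was below 0 on all 31 arrays, in either orientation. Its means in time order were -0.78 ± 0.20, -0.92 ± 0.20, -0.59 ± 0.15, -0.51 ± 0.21 and -0.71 ± 0.30 (SD over 4, 2, 4, 4 and 2 tumors), and all passed (adjusted p = 4.28e-04, 0.00393, 0.0102, 0.0282 and 0.00603). In fold, the day 1 level was 1.72 times lower than the pool and the day 7 level 1.43 times lower. With 1 mean per mouse days 4 and 7 did not pass (adjusted p = 0.0728 and 0.178), and in the authors' table the day 7 value was -0.19 (adjusted p = 0.471).

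The set 5 probe of MYBL1 gave -0.50, -0.83, -0.95 and -0.33 in replicates 1 to 4 of day 1, and -0.73 and -0.81 at day 2. In replicates 1, 2, 3 and 5 of day 4 it gave -0.51, -0.35, -0.20 and -0.26, in replicates 1 to 4 of day 7 it gave -0.77, -0.45, -0.91 and -0.51, and at day 14 it gave -0.59 and -1.12. These 16 values were below the pool, but day 4 replicate 3 (-0.20) has a forward array alone, and with the dye effect of each probe removed it was at 0.19, which leaves 15 of 16 tumors below. Means of -0.65 ± 0.28, -0.77 ± 0.06, -0.66 ± 0.22 and -0.85 ± 0.38 (SD over 4, 2, 4 and 2 tumors) for days 1, 2, 7 and 14 passed (adjusted p = 0.00348, 0.0251, 0.0130 and 0.00336), and the day 4 mean of -0.33 ± 0.13 (SD, n = 4) did not (adjusted p = 0.156). On this probe the forward ratios averaged -1.03 and the dye-swap ratios -0.25, so its size depends on both orientations being present. With dye-swap arrays alone no day passed for it, and day 4 had a value of 0.11.

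Both MYBL1 probes are dim, and several of their calls end when 1 tumor is left out. For the set 2 probe these are day 2 without day 2 replicate 1 (adjusted p = 0.0637), day 4 without day 4 replicate 2 (adjusted p = 0.0759), day 14 without day 14 replicate 2 (adjusted p = 0.317) and day 7 without any of the 4 day 7 tumors, day 1 replicate 2 or day 4 replicate 1 (adjusted p = 0.0525 to 0.153). For the set 5 probe they are day 2 without either day 2 tumor, day 7 without day 7 replicate 1 or 3, and day 14 without day 14 replicate 2 (adjusted p = 0.0630 to 0.390). The day 1 call of the set 2 probe held in all 34 settings, and that of the set 5 probe was lost with 1 mean per mouse (adjusted p = 0.0788) and with dye-swap arrays alone (adjusted p = 0.168). Over the 16 tumors the probes followed each other only weakly (r = 0.26), and the set 2 probe was the lower one in 9 tumors.

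MYB passed the test on no day. Its log2 ratio was -0.04, -0.25, -0.50 and -0.52 in replicates 1 to 4 of day 1, and -0.15 and -0.46 at day 2. In replicates 1, 2, 3 and 5 of day 4 it was -0.56, -0.72, 0.08 and -0.10, in replicates 1 to 4 of day 7 it was 0.24, -0.21, -0.02 and -0.39, and at day 14 it was -0.39 and -0.75. It was below the pool in 14 of 16 tumors, and the tumors of different days overlapped. The 2 tumors with the lowest values at day 4 came from the same mouse. The day means in time order were -0.33 ± 0.23, -0.30 ± 0.22, -0.33 ± 0.38, -0.09 ± 0.27 and -0.57 ± 0.26 (SD over 4, 2, 4, 4 and 2 tumors), with adjusted p = 0.156, 0.474, 0.239, 0.855 and 0.0812. Day 14 passed with array weights (adjusted p = 0.0148) and in the authors' value table (adjusted p = 0.0206), and day 1 passed with forward arrays alone (adjusted p = 0.0306), with array weights (adjusted p = 0.0401) and with the day 1 tumors alone (adjusted p = 0.0441).

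The count of members called lower is given per day beside the share of all probes and of the named probes that were. At day 1, 3 of 5 passed as lower, against 3.59% of 9912 probes and 22.5% of the 333 named ones. At day 2, 4 of 5 passed, against 0.636% and 11.7%. At day 4, 1 of 5 passed, against 0.696% and 9.61%. At day 7, 2 of 5 passed, against 0.494% and 10.2%. At day 14, 4 of 5 passed, against 2.96% and 39.9%. The second share of each pair is the closer background, since the members come from the list of changed probes. The day 4 call was that of the set 2 probe of MYBL1, and MYB was the member without a call at days 2 and 14. Both MYBL1 probes are among the calls of days 1, 2, 7 and 14, so 1 gene counts as 2 there. At day 7 they were the only calls. The set 2 probe of MYBL1 was 1 of 9 named probes, and of 12 among all 9912, called lower on all 5 days.

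Differences between days do not contain the pool. They still contain time as well as longer tamoxifen, and these cannot be told apart, since all 16 tumors were treated. From days 1 and 2 to days 4 and 7 the difference was positive for all 5 probes, with 0.37 for FOXM1 (95% confidence interval 0.13 to 0.61), 0.58 for MYBL2 (0.22 to 0.94), 0.30 for the set 2 probe of MYBL1 (0.06 to 0.54), 0.21 for its set 5 probe (-0.05 to 0.48) and 0.11 for MYB (-0.20 to 0.42). None passed over all probes (adjusted p = 0.531 to 0.925). Neither did any other probe of the arrays (0 of 9912, 0%), although 719 had an unadjusted p under 0.05. The MYBL2 difference was 0.32 without day 2 replicate 1.

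From days 4 and 7 to day 14 the difference was negative for all 5 probes. That of MYBL2 was the largest of them, at -1.15 (95% confidence interval -1.66 to -0.64), and did not pass (adjusted p = 0.0588), while 22 probes (0.222%) did, 7 of them as lower. For FOXM1 the difference was -0.44 (-0.78 to -0.10, adjusted p = 0.284), for MYB -0.36 (-0.80 to 0.08, adjusted p = 0.527), and for the set 2 and set 5 probes of MYBL1 -0.16 (-0.50 to 0.18) and -0.36 (-0.73 to 0.01, adjusted p = 0.751 and 0.451). FOXM1 and MYBL2 were the 2 probes whose day 14 tumors both lay below all 8 tumors of days 4 and 7, which held for 4.82% of all probes. This share was not computed among the 333 named probes, of which 39.9% passed as lower than the pool at day 14 against 2.96% of all. The MYBL2 difference was -1.09 on forward arrays alone and -1.12 on dye-swap arrays alone, so both orientations gave it. It was -0.79 without day 14 replicate 2 (adjusted p = 0.585) and passed under 11 of 34 other settings, among them the authors' value table (adjusted p = 0.00977). In the F-test across the 5 days no member passed (adjusted p = 0.133 for MYBL2, 0.419 for FOXM1 and 0.546 to 0.727 for the others), against 0.0807% of all probes.

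**Figure D3:**
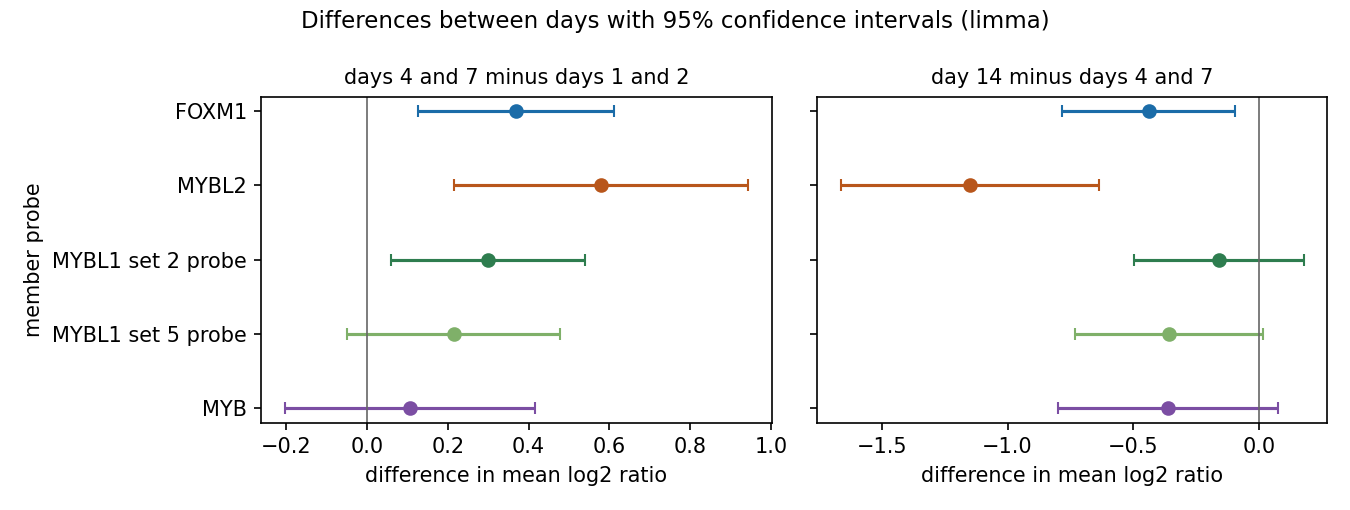
Difference in mean log2 ratio (horizontal axis) of days 4 and 7 from days 1 and 2 (left) and of day 14 from days 4 and 7 (right) for each member probe, with 95% confidence intervals from limma that are not adjusted for the number of probes. All 5 points lie to the right of 0 on the left and to the left of 0 on the right, and MYBL2 lies farthest out in both.

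Whether the factors changed by different amounts was tested within tumors, as the difference between 2 factors, averaged per mouse. MYBL1 entered as the mean of its probes, and 6 pairs were compared in 2 contrasts, 12 tests in all. From days 4 and 7 to day 14, FOXM1 minus MYBL2 changed by 0.71. It was 0.56 ± 0.22 (SD, n = 2 mice) in the day 14 mice and -0.15 ± 0.25 (SD, n = 6 mice) before. MYBL2 minus MYBL1 changed by -0.82, to -0.38 ± 0.17 (SD, n = 2 mice) from 0.45 ± 0.36 (SD, n = 6 mice). Both reached the smallest p that 2 against 6 mice allow (two-sided exact permutation test, p = 0.0357), and neither held after adjustment over the 12 tests (adjusted p = 0.214). With the other values as they were, that number of mice could not have passed the adjustment, so the miss says nothing about the differences. MYBL2 minus MYB changed by -0.68 (exact permutation p = 0.107, adjusted p = 0.429). The other 3 pairs differed by -0.12 to 0.14 (exact permutation p = 0.571 to 0.893). From days 1 and 2 to days 4 and 7 no pair differed by more than 0.37 in size (exact permutation p = 0.429 to 0.681), and without day 2 replicate 1 the values for MYBL2 were closer to 0, at 0.09 for FOXM1 minus MYBL2 and -0.07 for MYBL2 minus MYBL1.

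Across the 12 mouse means FOXM1 and MYBL2 were related (Pearson r = 0.73, permutation p = 0.00768, adjusted p over 6 pairs 0.0230; Spearman rho = 0.70, permutation p = 0.0140, adjusted p = 0.0842). Without the 2 mice farthest from the median of FOXM1, r was 0.72. That choice went by FOXM1 alone, so the day 2 mouse with MYBL2 at -1.52 stayed in. Between deviations from the day means r was 0.17. FOXM1 and MYBL1 gave r = 0.72 (permutation p = 0.00763, adjusted p = 0.0230; Spearman rho = 0.60, permutation p = 0.0434, adjusted p = 0.1301), but 0.33 without the 2 farthest mice, so that relation rests on those mice. The other 4 pairs had r between 0.22 and 0.56 and did not pass (permutation p = 0.0566 to 0.485, adjusted p = 0.0929 to 0.485). FOXM1 and MYB had r = 0.22, and -0.38 without the 2 farthest mice. All mice share the pool, and the permutation takes no account of the days.

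**Figure D4:**
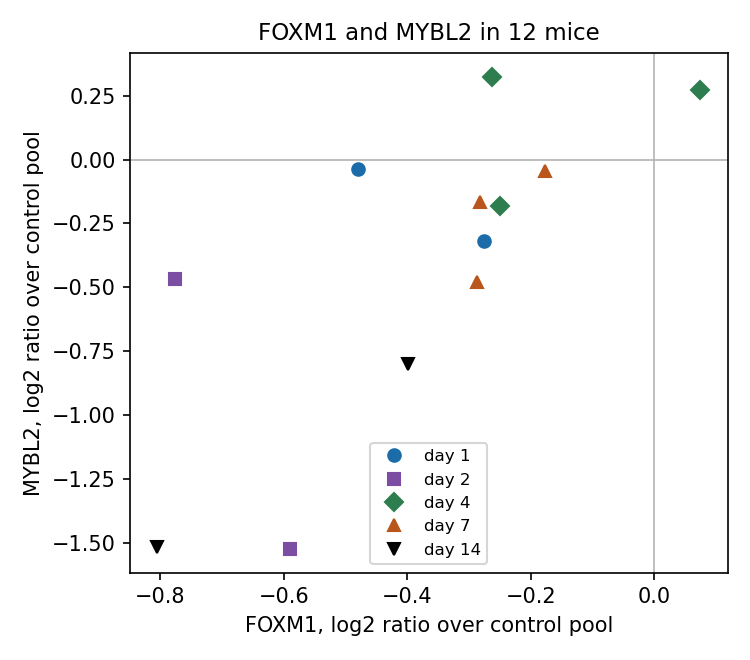
Mean log2 ratio over the control pool of FOXM1 (horizontal axis) and MYBL2 (vertical axis) in each of 12 mice, by day of tamoxifen. The lowest MYBL2 values belong to a mouse of day 2 and a mouse of day 14 and the highest to mice of day 4, and within a day the points show little common slope (r = 0.17 between deviations from day means).

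The named genes most like each factor over the 16 tumors, out of 252, were mostly genes of the cell cycle for FOXM1, MYBL2 and the set 5 probe of MYBL1. For FOXM1 they were TACC3, a spindle protein (r = 0.89), TK1, a thymidine kinase of S phase (0.87), and MKI67, the gene of the proliferation antigen Ki-67 (0.85). For MYBL2 they were DLG7 (0.86), an older symbol of the spindle gene DLGAP5, TK1 (0.84) and CDC25B (0.84), a phosphatase that starts mitosis. FOXM1 and MYBL2 had r = 0.70 with each other, and MYBL2 ranked 16 among the probes nearest to FOXM1. For the set 2 probe of MYBL1 they were ELOVL5, a fatty acid elongase (0.61), MCM2, a replication helicase subunit (0.60), and HMGB2, a chromatin protein (0.57). For the set 5 probe they were CDKN3, a phosphatase of CDKs (0.74), ZWINT, a kinetochore protein (0.71), and CKS2, a small partner of CDKs (0.65). Between deviations from the day means r was lower for several of these, at 0.58 for MYBL2 with DLG7, 0.62 with TK1 and 0.61 with CDC25B, 0.26 for MYBL2 with FOXM1, 0.27 for the set 2 probe with HMGB2 and 0.31 for the set 5 probe with CKS2. For FOXM1 it was 0.83, 0.74 and 0.73.

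MYB was nearest to CELSR2, a cadherin (r = 0.85), RAB31 (0.76) and AMPH, amphiphysin (0.74), and the first 2 are on the list of estrogen-induced genes. Its r was -0.05 with FOXM1 and 0.17 with MYBL2. Between deviations from the day means the 3 values were 0.88, 0.74 and 0.80. RAB31, a small GTPase of vesicle traffic, had a lowest tumor of -1.69 and a highest of 0.18 on day 4, and -1.81 and 0.73 on day 7. All values come from the same arrays and the same pool, and these correlations are descriptions without a test.

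Genes that FOXM1 and MYBL2 with MuvB are known to switch on in G2 and mitosis were the first list set beside the factors. Of 59 genes listed, 18 had a named probe. As lower than the pool, 8, 11, 0, 2 and 14 of them passed from day 1 to day 14 in time order, and the median log2 ratios were -0.32, -0.71, -0.14, -0.23 and -0.67. The median was nearest to the pool on day 4, as the mean of FOXM1 was. For this list and those of E2F targets and estrogen-induced genes, up to 4 genes were picked by the smallest F-test p across days. Their movement between days follows from that choice. NEK2, a centrosome kinase, had a mean of -1.11 ± 0.07 (SD, n = 2) on day 2, -0.31 ± 0.07 (SD, n = 4) on day 4 and -0.76 ± 0.10 (SD, n = 2) on day 14. DLG7 had -1.03 ± 0.27 (SD, n = 2) on day 2 and -0.07 ± 0.10 (SD, n = 4) on day 4. PRC1, which bundles the spindle midzone, had 0.01 ± 0.19 (SD, n = 4) on day 4 and -0.97 ± 0.02 (SD, n = 2) on day 14. CCNA2, cyclin A2, a partner of CDK2, was the only one of 25 listed MuvB, RB and CDK partners with a named probe, with -0.90 ± 0.03 (SD, n = 2) on day 2 and -0.17 ± 0.23 (SD, n = 4) on day 4. Other genes of G2 and mitosis moved less. TMPO had a mean of -0.03 on day 2, and KIF23 had -0.33 on day 4 and -0.27 on day 7.

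The difference from days 1 and 2 to days 4 and 7 was positive for all 18 genes (median 0.37) and that to day 14 negative for all 18 (median -0.50), beside medians of 0.00 and 0.00 over all probes, and 0 and 1 of them passed. The named probes are the closer background, and their median log2 ratio was -0.05 on day 7 and -0.32 on day 14. To day 14, 20 of 22 estrogen-induced genes (median -0.64) and 7 of 7 E2F target genes (median -0.66) had negative differences too. From days 1 and 2 to days 4 and 7, 11 of 22 and 7 of 7 were positive. MKI67 was read by 2 probes. The set 3 probe, which stands for it in the list, had means of -0.60, 0.03 and -0.47 on days 2, 4 and 14 and did not pass on day 14 (adjusted p = 0.159), and the set 1 probe had -0.36, 0.11 and -0.74 and passed on day 14 (adjusted p = 0.0163). These genes were listed by the study as changed on the same arrays, which makes the shared shape a description.

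E2F target genes of G1 and S phase were the second list. Of 53 listed, 7 had a named probe. As lower, 6, 0, 1, 0 and 6 passed in time order, and the medians were -0.52, -0.44, -0.09, -0.22 and -0.65. RRM2, the small subunit of ribonucleotide reductase, had means of -0.52 ± 0.11 (SD, n = 4) on day 1, 0.13 ± 0.09 (SD, n = 4) on day 4 and -0.81 ± 0.09 (SD, n = 2) on day 14, and passed the F-test across days (adjusted p = 0.00961). TYMS and TK1, which supply thymidine nucleotides, had 0.15 ± 0.05 and 0.11 ± 0.10 (SD, n = 4) at day 4 and -0.66 ± 0.52 and -0.65 ± 0.34 (SD, n = 2) at day 14. KIAA0101, a PCNA-binding protein, had -1.08 ± 0.12 (SD, n = 2) at day 14. MYBL2 was at -0.18 on day 1 beside the list median of -0.52, a difference that was not tested.

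**Figure D5:**
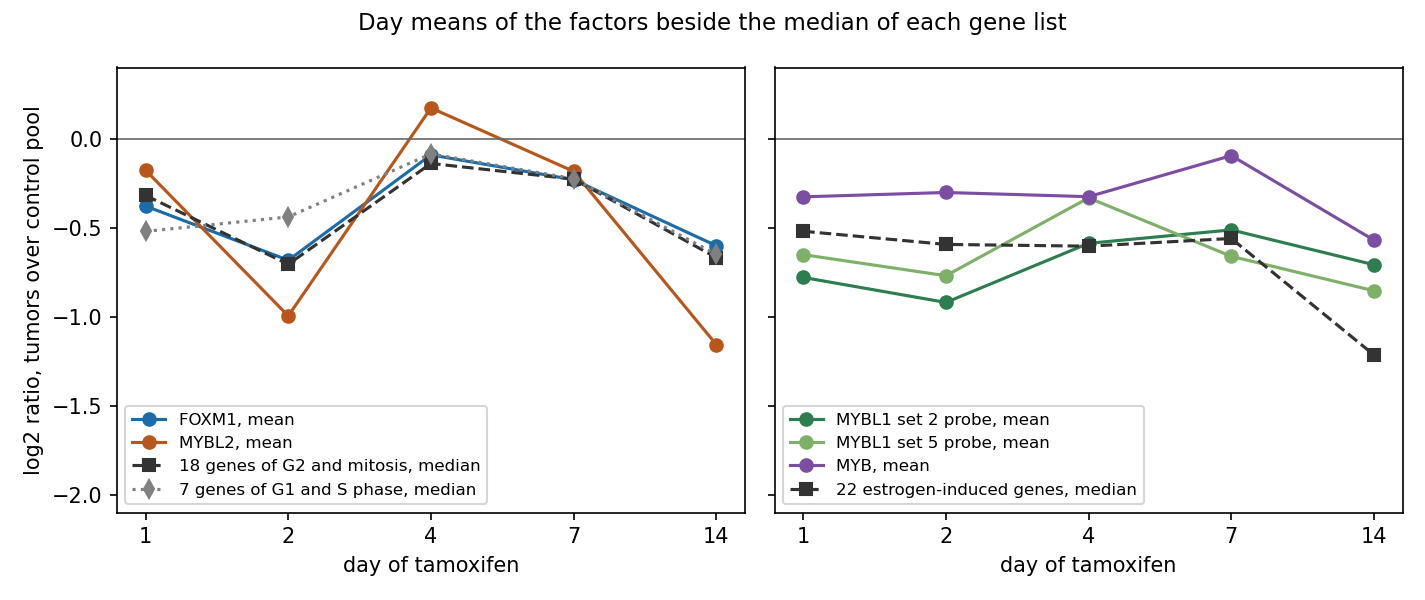
Day means of the log2 ratio over the control pool for the member probes, beside the median log2 ratio of gene lists, by day of tamoxifen drawn at equal steps. FOXM1 runs close to the median of 18 genes of G2 and mitosis (left). On days 4, 7 and 14 it is about as close to the median of 7 genes of G1 and S phase. MYBL1 and MYB stay below 0 on all days beside 22 estrogen-induced genes (right), whose median drops to -1.21 at day 14.

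Estrogen-induced genes had medians below the pool on all 5 days. Of 36 listed, 22 had a named probe. As lower, 11, 5, 11, 11 and 21 passed in time order, with medians of -0.52, -0.59, -0.60, -0.56 and -1.21. OLFM1, a secreted glycoprotein, passed on all 5 days like the set 2 probe of MYBL1, with means of -0.94 at day 1, -0.50 at day 7 and -1.33 at day 14. TFF1, TFF3, B4GALT1 and ELOVL5 of this list also passed as lower on all 5 days. GFRA1, a coreceptor of GDNF, and NELL2, a secreted protein, were at -2.53 ± 0.26 and -1.89 ± 0.10 (SD, n = 2) at day 14. SLC9A3R1, a PDZ scaffold, had -0.94 ± 0.14 (SD, n = 4) on day 1 and -0.10 (n = 2) on day 14. MYB stood at -0.57 on day 14, a difference from this list that was not tested. Of 29 reported MYB targets 0 had a named probe, so none could be described.

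Markers of cell types were named for few genes. Of 13 luminal epithelial markers 5 had a named probe, and their mean per tumor was 0.76 to 0.91 at day 14 and -0.09 to 0.20 at day 4. These 5 did not move as 1 group. At day 1, 1 passed as lower (MUC1, -0.69) and 2 as higher (CLDN4, 0.88, and SPINT1, 0.58). Of 13 fibroblast and matrix markers 2 had one, FN1 and LGALS1, with a mean per tumor of -0.85 to -0.44 at day 14, -0.30 to -0.26 at day 2 and -0.34 to 0.39 at day 4. Of 9 hemoglobin and erythroid markers 2 probes were named, with a mean per tumor of -2.08 to -0.64 at day 4 and -0.53 to 1.15 at day 7. No marker of endothelium or of macrophages and leukocytes, 8 of each, was named. FN1 and LGALS1 were thus lowest on day 14, as were the means of MYBL2, MYB and the set 5 probe of MYBL1. The median of the named probes was also lowest on that day (-0.32). The part of FN1 and LGALS1 in the values of the factors was not tested.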

How the data were processed

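The authors deposited scanner files of 32 cDNA arrays with 2 colors, whose intensity columns hold each channel's foreground and background before any correction. The log2 ratios in the deposited value table were made by the authors with limma through background correction, loess and quantile normalization, and served as an alternative. In R 4.3.3 with limma 3.58.1, spots with mark 0 (1 to 393 per array, meaning not stated) were left out, background was corrected by normexp (offset 50), and loess and quantile normalization followed. The sign of dye-swap arrays was turned and the 2 arrays of a tumor were averaged. Means per day were fitted with the mouse as a random block (estimated correlation 0.0206), eBayes and Benjamini-Hochberg adjustment over 9912 probes. Every adjusted p of a probe is limma's. The fit was checked on simulated data. Tests against the pool hold no spread of the pool, which is a single RNA sample. The day contrasts were computed from the same fit.

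The authors' fold changes for the 333 named probes were not used, and probes without a name were not analysed singly. Genes named beyond the members are mostly the 3 nearest in pattern to each and up to 4 per list with the smallest F-test p. MKI67, CCNA2 and some other listed genes are given beside them. The brightest probe stands for a gene other than a member. The members and gene lists were chosen with earlier results of these data known. Alternatives covered background, normalization, spot marks, dim probes, blocks, array orientation, the authors' table, array weights, the days fitted and leaving out each tumor. Leaving out spots marked 2, the dye-swap array of day 2 replicate 1, or the dye effect was chosen after seeing the data. Correlations were permuted 100000 times.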

Additional observations from a re-analysis of the deposited data

Results flagged for a closer look

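FOXM1 had a tumor far from the other 3 of its day at days 1 and 7, by Dixon's test, which flags about 1 in 20 groups by chance. At day 1 replicate 3 stood at -0.020, with -0.24 on its forward and 0.20 on its dye-swap array, while the others were between -0.53 and -0.47. At day 7 replicate 4 stood at -0.052, with 0.03 on its forward and -0.14 on its dye-swap array, while the others were between -0.30 and -0.28. That forward array is the one that matched its own column of the authors' table at only 0.22. Without this tumor the day 7 mean of FOXM1 was -0.29. Whether the array or the tumor sets this value apart was not tested.

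Within tumors, FOXM1 minus MYBL2 changed by 0.71 from days 4 and 7 to day 14, and MYBL2 minus MYBL1 by -0.82. Each had p = 0.0357 in an exact permutation test over mice before adjustment (adjusted p = 0.214 over 12 tests).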

How the results depend on the processing

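Of 37 other settings, 16 left out 1 tumor each and 3 were chosen after seeing the data (spots marked 0 or 2 left out, the dye-swap array of day 2 replicate 1 left out, the dye effect of each probe removed first). MYBL2 at day 14 stayed lower than the pool in all of those tried. Its difference from days 4 and 7 passed with plain background subtraction (-1.11), no background correction (-1.05), loess alone (-1.11), the dimmest probes left out (-1.15), the authors' table (-1.07), array weights (-1.14), marked spots left out (-1.14) and without that dye-swap array (-1.15), and was -1.51 to -0.79 when 1 tumor was left out. The cause was not tested.

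The members called lower at day 1 (3) were 1 with 1 mean per mouse and 1 with dye-swap arrays alone. At day 2 (4) they were 2 with loess alone, with the left-out array used or without the dye-swap array of replicate 1, 1 with array weights, the replicate block, dye-swap arrays alone or marked spots left out, and 0 with each day fitted alone. At day 4 (1) they were 2 in the authors' table and on forward arrays, and 0 with 1 mean per mouse, the left-out array, dye-swap arrays alone or the day alone. At day 7 (2) they were 1 with 1 mean per mouse and 0 in the authors' table, with the left-out array, dye-swap arrays alone, marked spots left out or the day alone. At day 14 (4) dye-swap arrays alone gave 1. Leaving out 1 tumor gave 2 to 3, 0 to 4, 0 to 1, 0 to 2 and 0 to 4 on these days.

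Signs turned on forward arrays for MYBL2 at day 1 (0.29) and day 7 (0.13), and on dye-swap arrays for MYBL2 at day 4 (-0.36), the MYBL1 set 5 probe at day 4 (0.11), MYB at day 7 (0.062) and the set 2 probe from days 4 and 7 to day 14 (0.10). Leaving out 1 tumor gave -0.21 to 0.0034 for MYB at day 7 and -0.37 to 0.051 for that difference of the set 2 probe. From days 1 and 2 to days 4 and 7, FOXM1 minus MYBL2 was 0.048 in the authors' table, 0.10 on forward arrays, 0.060 with marked spots left out, 0.0083 without the dye-swap array and -0.33 to 0.085 leaving out 1 tumor. FOXM1 minus MYBL1 was -0.041 with the left-out array, -0.0041 on forward arrays, -0.13 with marked spots left out, -0.084 without the dye-swap array, -0.00030 by the set 2 probe and -0.039 to 0.13 leaving out 1 tumor. MYBL2 minus MYBL1 was -0.013, -0.10, -0.19 and -0.092 in the authors' table, on forward arrays, with marked spots left out and without the dye-swap array, and -0.067 to 0.36 leaving out 1 tumor, which gave -0.0024 to 0.47 for MYBL2 minus MYB. From days 4 and 7 to day 14, FOXM1 minus MYB was -0.023 on dye-swap arrays, -0.081 with tumors as units and -0.066 to 0.078 leaving out 1 tumor. None of these differences passed.

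Replicate numbers did not pair tumors, since residuals of 24 same-number pairs correlated at a mean of 0.01 and as low as -0.17. With the replicate number as a block MYBL2 from days 4 and 7 to day 14 was -1.20 (adjusted p = 0.141), and FOXM1 was -0.40, -0.69 and -0.60 at days 1, 2 and 14 (adjusted p = 0.0634, 0.108 and 0.0588). Days with 2 tumors and the single pool limit the precision, and both MYBL1 probes are dim.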
